A study of Mus musculus with 20 samples.

Results

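The regions described here are stretches of the mouse genome that carried a peak of acetylated histone H3 lysine 27 (H3K27ac) in each of 10 libraries of embryonic facial tissue and lay more than 1 kb from every annotated transcript start. They were chosen by measured values, namely the presence of a deposited peak in each library, so their presence and the height of their levels are given as a description with no test, and the tests below compare levels between stages and between facial regions, which the rule did not use. Overlapping peaks of all libraries on chromosomes 1 to 19, X and Y were merged into 42346 regions, of which 27439 were distal by this definition and 245 of those, 0.893% of the distal regions, overlapped a peak in every library. The tissue came from wild-type mouse embryos, freshly dissected and holding mixed cells, with 1 library for each tissue and stage. Stages are embryonic days: at e11.5 the mandibular process, maxillary process, both nasal plates (medial and lateral) were sampled, and at the later stages, e13.5 and e15.5, the mandibular process, maxillary process and nose. All embryos were untreated, and in such bulk tissue a change in the number of cells that carry a mark and a change in the mark per cell cannot be told apart.

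H3K27ac is laid down by the acetyltransferases p300 and CBP at active promoters and enhancers, and it is widely used to map candidate enhancers, the distal elements that raise transcription of genes on the same chromosome. In the face most such elements are used in some tissues or stages and not in others, because the mesenchyme that neural crest cells give rise to is patterned into jaw and nasal primordia and later forms cartilage, bone and connective tissue. Annotations differ in the transcripts and tRNA genes they list, so a region that is distal by one of them can lie at a start in another.

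Sequences of 8 regions that the results turn on are shown first, each as 300 bases of the plus strand of GRCm38 (the mm10 build) read from the RefSeq genome sequence and centred on the bases covered by peaks of most libraries. Regions are called by the nearest protein-coding transcript start, which need not be the gene they act on. The first 6 are the region with the highest median level (Chd2), the one with the longest stretch covered in all libraries (Nfe2l3), a CpG-rich region of the densest cluster (Tex44), the strongest near a matrix gene (Col1a1), and those with the largest rise (Snx5) and fall (Sdk2) between e11.5 and e15.5, and capitals mark each CpG, the dinucleotide at which mammalian DNA is methylated.
Chd2 region, chr7:73617636-73617935: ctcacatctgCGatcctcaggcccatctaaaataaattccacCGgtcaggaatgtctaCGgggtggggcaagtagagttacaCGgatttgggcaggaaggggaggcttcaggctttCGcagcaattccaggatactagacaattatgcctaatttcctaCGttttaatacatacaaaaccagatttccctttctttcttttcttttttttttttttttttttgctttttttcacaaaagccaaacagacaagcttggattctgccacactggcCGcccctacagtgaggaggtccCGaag
Nfe2l3 region, chr6:51172571-51172870: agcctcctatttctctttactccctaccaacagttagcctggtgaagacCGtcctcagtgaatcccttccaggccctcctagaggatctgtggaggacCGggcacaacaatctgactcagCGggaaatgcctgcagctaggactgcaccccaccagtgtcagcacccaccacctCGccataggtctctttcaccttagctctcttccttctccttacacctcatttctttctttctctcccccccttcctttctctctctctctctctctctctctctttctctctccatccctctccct
Tex44 region, chr1:86442020-86442319: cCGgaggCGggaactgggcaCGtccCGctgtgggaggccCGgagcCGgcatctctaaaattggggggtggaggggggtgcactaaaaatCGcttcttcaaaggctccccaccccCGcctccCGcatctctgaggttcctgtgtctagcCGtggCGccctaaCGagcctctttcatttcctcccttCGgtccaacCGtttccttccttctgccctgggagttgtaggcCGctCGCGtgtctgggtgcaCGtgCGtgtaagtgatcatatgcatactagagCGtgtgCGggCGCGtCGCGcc
Col1a1 region, chr11:94881948-94882247: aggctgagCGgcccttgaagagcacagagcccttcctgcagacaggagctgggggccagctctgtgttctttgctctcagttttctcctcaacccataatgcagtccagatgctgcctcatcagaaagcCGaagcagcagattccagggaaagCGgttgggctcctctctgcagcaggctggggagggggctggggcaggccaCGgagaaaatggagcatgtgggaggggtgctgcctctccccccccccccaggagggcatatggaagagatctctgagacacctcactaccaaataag
Snx5 region, chr2:144160112-144160411: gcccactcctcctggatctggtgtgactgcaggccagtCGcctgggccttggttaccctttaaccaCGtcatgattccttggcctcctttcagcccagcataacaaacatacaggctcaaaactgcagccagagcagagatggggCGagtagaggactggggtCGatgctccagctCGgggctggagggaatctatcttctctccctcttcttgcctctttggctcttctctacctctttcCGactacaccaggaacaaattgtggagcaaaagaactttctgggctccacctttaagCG
Sdk2 region, chr11:113785743-113786042: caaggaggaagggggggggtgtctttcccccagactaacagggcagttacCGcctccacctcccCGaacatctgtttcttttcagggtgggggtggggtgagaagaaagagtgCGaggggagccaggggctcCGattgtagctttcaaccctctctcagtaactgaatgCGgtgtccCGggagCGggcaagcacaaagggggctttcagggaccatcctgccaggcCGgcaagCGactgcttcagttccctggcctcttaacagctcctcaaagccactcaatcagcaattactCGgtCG
The last 2 hold a tRNA gene, marked in capitals: n-TRcct5, on the plus strand, in the Mrpl58 region and n-TTagt9, on the minus strand, in the Lrp3 region.
Mrpl58 region, chr11:115412806-115413105: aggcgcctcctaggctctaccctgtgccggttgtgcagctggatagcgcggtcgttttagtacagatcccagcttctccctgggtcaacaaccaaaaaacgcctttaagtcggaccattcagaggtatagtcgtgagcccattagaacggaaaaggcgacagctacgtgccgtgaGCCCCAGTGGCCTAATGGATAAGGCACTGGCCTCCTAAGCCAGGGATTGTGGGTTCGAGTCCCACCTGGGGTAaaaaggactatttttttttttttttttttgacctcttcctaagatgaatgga
Lrp3 region, chr7:35234747-35235046: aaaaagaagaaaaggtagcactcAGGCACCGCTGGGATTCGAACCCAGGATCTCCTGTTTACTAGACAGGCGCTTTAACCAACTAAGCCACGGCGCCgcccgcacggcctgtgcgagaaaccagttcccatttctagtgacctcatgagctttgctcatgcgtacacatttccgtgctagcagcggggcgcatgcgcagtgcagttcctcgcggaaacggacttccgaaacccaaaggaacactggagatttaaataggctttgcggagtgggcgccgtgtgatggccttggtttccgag
The Tex44 window held 25 CpG dinucleotides and the Lrp3 window 22, against 4 each in the Nfe2l3 and Col1a1 windows, so CpG content differed widely among elements marked in all 10 libraries.

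The 10 deposited lists held 6571 peaks (e11.5 maxillary process) to 25941 peaks (e13.5 nose) on these chromosomes, and the number of reads behind them is unknown. A region could be present in all libraries only if the shortest lists held it. Peaks at the promoters of Twist1, Prrx1, Msx1 and Alx4, transcription factors of facial mesenchyme, were present in 10 of 10 libraries and that of Snai2 in 8. For the other cell types, no library had a promoter peak at Cdh5 (endothelium), Myod1 or Myf5 (muscle), Elavl3 (neurons), Csf1r (macrophages), Gata1 (erythroid cells), or Alb or Afp (liver), but some had one at the endothelial genes Pecam1 (5 libraries) and Erg (4), the erythroid gene Klf1 (2), the neuronal gene Tubb3 (1) and the macrophage gene Spi1 (1). The names inside the e15.5 peak files gave other tissues than the labels did, and among the e15.5 libraries the Hand2 promoter, a mandibular marker, had a peak only in the library labelled maxillary process, and those of Pax7 and Six3, nasal markers, only in the library labelled mandibular process. The labels are used throughout, and the e15.5 libraries enter as a set, except where the labelled facial region is a covariate.

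Presence in all libraries was rare away from starts. Of the distal regions, 16146 (58.8%) had a peak in 1 library, and 250 had one in 9. Within 1 kb of a start, 2586 of 14907 regions (17.3%) were present in all 10. Of the 250 distal regions present in 9 libraries, 133 (53.2%) lacked a peak in the library labelled e15.5 nose, 66 in e11.5 maxillary process and 33 in e13.5 mandibular process, all short lists, and without the e15.5 nose 379 distal regions were present in the other 9.

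**Figure D1:**
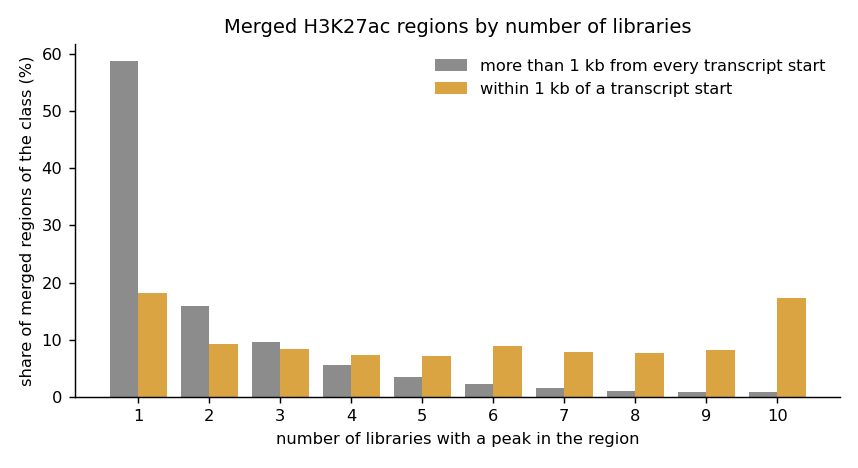
Share of merged H3K27ac regions (%) by the number of libraries with a peak in the region, for regions more than 1 kb from every transcript start (grey) and regions within 1 kb of one (yellow). The grey bars fall from 58.8% at 1 library to 0.893% at 10, and the yellow bar at 10 libraries reaches 17.3%.

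The 245 regions were wide, with a median of 4532 bp (1518 to 15385 bp) against 1161 bp over all distal regions, a difference the rule itself favours. In 239 of them some bases were covered by peaks of all 10 libraries, over a median of 1641 bp, and in 194 over at least 1000 bp. The other 6, nearest to Hhat, Shf, Cnn3, Scfd2, Shroom3 and Gm26897, were joined from peaks that no base shared across all 10 lists.
The longest stretch shared by all libraries, 5664 bp, lay at chr6:51160538-51175442, between genes, 94.5 kb from the start of the microRNA gene Mir148a and 257.2 kb from the start of Nfe2l3, which encodes a leucine zipper transcription factor. There the peaks of single libraries covered 5864 bp (e11.5 lateral nasal plate) to 13803 bp (e13.5 nose). The next were an intronic region of Dnm3, which encodes a dynamin and whose opposite strand hosts Dnm3os, with 4995 bp, one 19.9 kb downstream of the Sorl1 start with 4738 bp, and one upstream of Atf7ip with 4475 bp. Regions nearest to Tex44 (3893 bp), G430095P16Rik (3861 bp, in an intron of Nfix), Anapc13 (3789 bp), Foxk1 (3733 bp), Ddx3x (3488 bp) and Acot11 (3423 bp) completed the 10 longest.

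Regions between genes outnumbered those inside genes: 153 of the 245 were intergenic (62.4%, 95% exact binomial interval 56.1 to 68.5%, for counting error only), 85 intronic (34.7%) and 7 exonic (2.86%). Over all distal regions the order was the reverse, with 43.0% intergenic, 52.9% intronic and 4.10% exonic. Distal regions present in 9 libraries had the members' order, with 56.0% intergenic and 40.8% intronic, and those present in 5 to 9 had 48.7% and 47.7%. Members lay closer to starts than distal regions at large, at a median of 17.8 kb from the nearest protein-coding start against 27.8 kb, and 23 (9.39%) were over 100 kb away against 21.0%. For distal regions present in 9 libraries the median was 24.1 kb, and 15.2% were over 100 kb away. Members farthest from any start were nearest to Eya1 (191.6 kb), Lrig3 (176.7 kb), Adamts6 (164.4 kb to a noncoding start), Slc27a6 (160.0 kb) and Atp10a (117.9 kb to a pseudogene start). The 5 nearest to the 1 kb limit lay 1002 bp (Plxdc1), 1027 bp (Glyctk), 1074 bp (Alox5ap), 1239 bp (Mrpl58) and 1370 bp (Gm11733) from a start, and the 5 regions present in all libraries that just missed it lay 943 bp (Cluap1), 804 bp (Wdr66), 779 bp (Mpzl1), 540 bp (Smg6) and 466 bp (Ski) from one, 4 of them from the start of a processed pseudogene.

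Some members lay near each other, which was not set against other classes of regions. When members up to 50 kb apart were joined, 198 of the 245 stood alone and 21 clusters held the other 47. The densest spanned 74.5 kb at chr1:86432261-86506752 between Tex44 and Ptma, which encodes prothymosin alpha, an abundant nuclear protein of dividing cells, and held 5 members among 11 distal regions. Within it the region at chr1:86438942-86444958 stood between the 97.9th and the 99.9th percentile of fold enrichment in every library. Ddx3x on chromosome X, an RNA helicase gene, and Dnm3 were each nearest to 3 members, as was Tex44. All 3 distal regions nearest to Ddx3x were present in all 10 libraries, against 3 of 26 nearest to Dnm3.

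Although GENCODE listed no start within 1 kb of any of the 245, RefSeq, which was not used to choose them, did for 54 (22.0%), against 5.34% of all distal regions, 10.6% of those present in 5 to 9 libraries, 13.6% of those present in 9 and 3.64% of those present in 1. For 35 of the 54 the nearest RefSeq start belonged to a long noncoding RNA, for 11 to a tRNA gene and for 8 to an mRNA or other transcript. Wide regions meet more starts, so the same was counted within 500 bp of 1 position in each region, the middle of the sequence window: 31 members had a RefSeq start there (12.7%), against 2.47% of all distal regions and 80.2% of the regions near GENCODE starts that were present in all libraries. The annotations are not independent of each other.

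Transfer RNA genes were among these starts. RNA polymerase III transcribes them from promoters inside the gene, and active tRNA genes are known to lie in acetylated chromatin. Of the 245 members, 13 (5.31%) held or adjoined a tRNA gene, against 0.248% of all distal regions and 3.20% of those present in 9 libraries. Within 500 bp of the window's middle the shares were 4.49% (11 members) and 0.193%. The 13 regions together held 25 of the 403 tRNA genes that RefSeq lists, for 11 amino acids. In 8 regions a tRNA gene lay wholly within bases covered by peaks of all 10 libraries. In 19 of the 25 genes the letters GGTTCGA, the start of the B box that the transcription factor TFIIIC binds, were found on the gene's own strand.
A region nearest to the olfactory receptor gene Olfr1423, at chr19:12009073-12013096, held 5 of them, and 3 lay in each of the regions nearest to Mrpl58, Shf and Rnase12. The Mrpl58 region, at chr11:115411399-115414606, held 3 arginine tRNA genes. Levels ranged widely: the region nearest to Pom121l2 had a median percentile of 97.7 over the 10 libraries, that near Nufip1 94.8 and that near Plxdc1 61.0. This group was set apart after its values were seen.

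Where no tRNA gene was near, known RefSeq transcripts began within 1 kb of 10 members. These included a noncoding transcript at each of the regions nearest to Btg2, Plekho1, Zfp239, Atf7ip, Sdk2, Arid1b, Zfp36l2 and Epcam, and an mRNA of Ppfibp2 and of Zfp869. The remaining 191 members had no start within 1 kb in either annotation, and their share of intergenic positions was 58.1%.

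CpG-rich sequence was more frequent in members than in other distal regions. A window of 500 bp with at least 50% G+C and an observed over expected CpG ratio of at least 0.6 was found at the shared bases of 45 members (18.4%, 95% exact binomial interval 13.7 to 23.8%), against 1.305% of all distal regions, 5.34% of those present in 5 to 9 libraries, 8.40% of those present in 9, 0.545% of those present in 1, and 75.6% of the regions near starts. Of the 54 members with a RefSeq start, 33.3% were CpG-rich, and of the 191 without one, 14.1% (27 regions). The median G+C content was 52.8% in members, 47.2% in all distal regions and 63.0% near starts, and only 1 member (0.408%) had a window mostly of repeats, against 3.47% of distal regions.

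**Figure D2:**
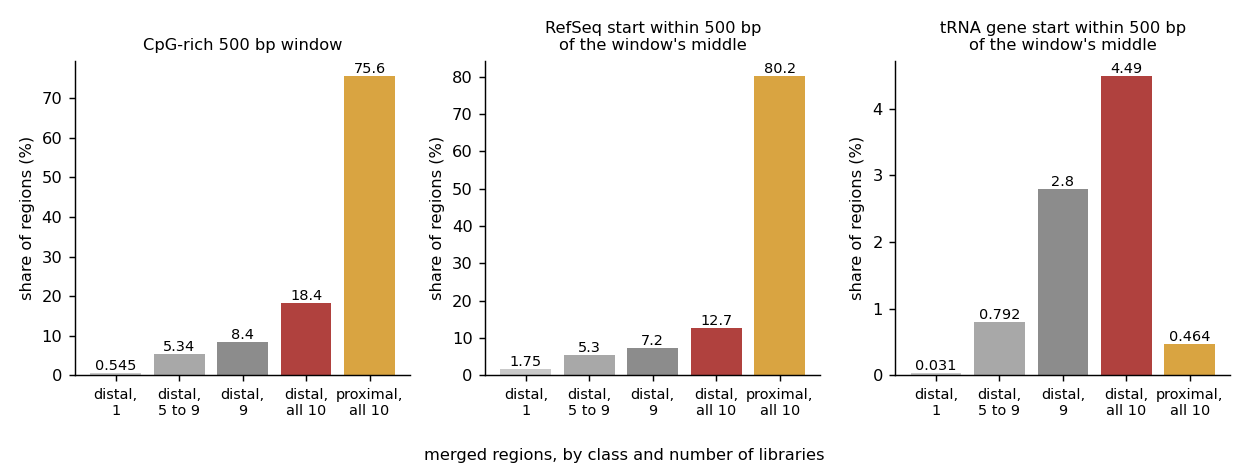
Share of regions (%, y axes that differ between panels and start at 0) with a CpG-rich 500 bp window, with a RefSeq start within 500 bp of the window's middle and with a tRNA gene there. Bars stand for distal regions present in 1 library, in 5 to 9, in 9 and in all 10 (red), and for regions within 1 kb of a start present in all 10 (yellow). The bars of distal regions grow with the number of libraries, to 18.4%, 12.7% and 4.49% in the 3 panels.

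Of 30 consensus motifs searched on both strands of the 300 bp windows, 13 were found in a larger share of members than of all distal regions. They included letters bound by promoter factors, such as GGGCGG of the SP/KLF family in 23.7% of members against 6.68% of all distal regions, 14.1% of those present in 5 to 9 libraries and 56.96% of regions near starts. It was found in 22.0% of the 191 members without a RefSeq start. CCGGAA of the ETS family was found in 9.80% against 4.17%, CACGTG of the MYC type in 8.57% against 4.21%, AGGGGGC, a part of the CTCF motif, in 10.6% against 4.34%, and GCCNNNGGC of AP-2, a regulator of facial neural crest, in 16.7% against 9.46%.
Letters bound by several factors of facial and neural patterning were found in a smaller share of members. TGATNNAT of PBX was found in 3.67% against 10.6%, ACAATG of SOX factors in 11.02% against 15.7%, CATNTG, an E-box form that TWIST1 binds, in 47.3% against 56.2%, and AGATAAG of GATA factors in 0.816% against 3.39%. Those of RUNX (TGTGGT, 21.2% against 21.0%) and TEAD (GGAATG, 19.2% against 19.2%) had nearly equal shares. Others had a larger share in members. CAGCTG, the canonical E-box, was found in 24.49% against 19.98%, and TGTTTAC of forkhead factors in 6.12% against 4.96%. In windows of 1000 bp the forkhead letters had the smaller share in members, 11.4% against 15.3%. A match shows only that the letters are there, and the motifs that hold CG follow the CpG content given above. Members also had a higher median G+C content (52.8% against 47.2%). Its part in the smaller shares of motifs rich in A and T was not tested.

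Grouped by nearest gene, matrix genes had 6 members and neural crest and facial mesenchyme transcription factors had 1. These lists were chosen with earlier results of these data known, and differences between counts this small were not tested. Matrix genes were nearest to 6 members (2.45%, against 0.871% of distal regions): 2 each at Col1a1 and Col1a2, which encode the chains of type I collagen, and 1 each at Dcn, decorin, and Fbln2, fibulin 2. The Col1a1 region at chr11:94879106-94885174, 51.0 kb upstream of the start, lay between the 96.4th and 99.9th percentile in all 10 libraries, and the second, at chr11:94926285-94931236 and 5.0 kb upstream, between the 18.9th and 86.8th. The upstream regions of Col1a2, at chr6:4486961-4492654 and chr6:4454638-4459398, had medians of 94.4 and 92.2. Type I collagen is the main matrix protein of bone and of loose connective tissue, and both genes also stood in the osteoblast list, with 4 members.
Of 68 neural crest and facial mesenchyme transcription factors, 63 were nearest to some distal region, and 1, Tcf12, an E protein that pairs with TWIST1, was nearest to a member (0.408%, against 1.83% of distal regions).

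Signalling pathways had few members each. Of the Hedgehog list 4 genes were nearest to a member (1.63% against 0.405%): the coreceptors Boc and Gas1, the transcription factor Gli2 and Hhat, which attaches palmitate to Hedgehog ligands, with median percentiles of 88.0, 64.9, 83.7 and 54.8. The AP-1 and immediate early list also had 4 (1.63% against 0.554%), namely Fos, Btg2, Nr4a1 and Zfp36l2, with medians of 95.9, 78.5, 74.9 and 73.0. Chromatin regulators had 5 members (2.04% against 0.878%), among them 2 at Arid1b, a subunit of the BAF remodelling complex, and 1 each at Chd4, a remodeller of the NuRD complex, and Nsd1, a histone methyltransferase. Wnt genes had 3 (Axin2, Fzd2 and the receptor Ror2), Notch genes 3 (Notch1, Notch2 and the coactivator Maml3), the TGF-beta list 3 (2 at Ski, 1 at Smad6) and the retinoic acid list 3 (2 at Rxra, 1 at Crabp2). FGF genes had 2 (the receptor Fgfr1 and Spred2, an inhibitor of its signalling), the Hippo list 2 (the coactivator Yap1 and Vgll4), and the actin and adhesion list 2 (Cnn3 and Palld). The nuclear receptor list had 3 (2 at Rxra, 1 at Nr1d1), and the growth, housekeeping and epithelial lists had 1 each, at Ccnd3, Eef1a1 and Epcam. Each list with 3 held 1.22% of members. Their shares of distal regions were 0.944% (Wnt), 0.357% (Notch), 0.816% (TGF-beta), 0.277% (retinoic acid) and 0.386% (nuclear receptors). Each list with 2 held 0.816%, against 0.499% (FGF), 0.335% (Hippo) and 0.649% (actin and adhesion). Each of the last lists with 1 held 0.408%, against 0.587% (growth), 0.0948% (housekeeping) and 0.179% (epithelial). No test was run on these shares. The lists of chondrocyte, endothelial, muscle, neuronal, macrophage and erythroid, liver and heart, and posterior Hox genes had 0, and each of these lists was nearest to at most 0.368% of all distal regions, so that few members would be found at that share.

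Levels within each list were then described. Fold enrichment, the ratio of ChIP signal to background that the peak caller gives, depends on a list's depth, and each member's strongest peak was also ranked within its library as a percentile of all peaks there. The percentile depends on the length of the list as well: the 5 longest lists had the 5 highest medians over the members, 87.6 to 91.7, and the regions near starts were also higher in them. By library, the median percentile was lowest in e13.5 maxillary process (62.7) and the library labelled e15.5 nose (64.9), and highest in e11.5 medial nasal plate (91.7). The median fold ranged from 3.70 in the e15.5 nose to 7.77 in the e13.5 nose, and in each library the weakest member had a fold between 2.63 and 3.29. In 79 members (32.2%) the percentile was 50 or more in all 10 libraries, against 48.0% of the regions near starts, and in 49 (20%) it was below 10 in at least 1 library, against 12.7%.
Only 6 members (2.45%) were at or above the 90th percentile everywhere, against 6.34% of the regions near starts. The 6 were nearest to Tex44, Col1a1, Zfp239, Nedd4, Cdrt4 and Chd9.

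**Figure D3:**
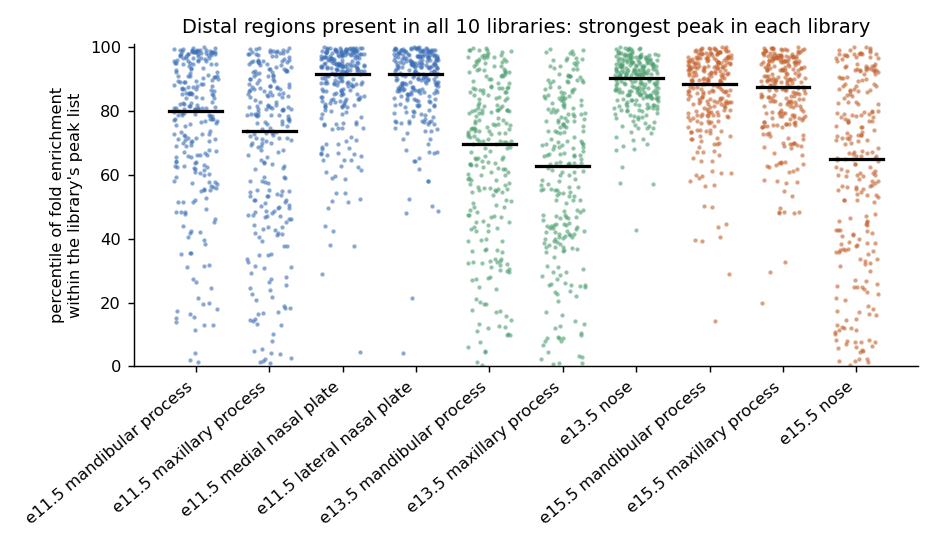
Percentile of fold enrichment of the strongest peak of each of the 245 regions (points) within the peak list of each library, with the median as a bar; blue is e11.5, green e13.5 and orange e15.5. Medians run from 62.7 in e13.5 maxillary process to 91.7 in e11.5 medial nasal plate, and points of every library reach the 95th percentile or more.

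The highest median level belonged to chr7:73611468-73621154, between genes, 69.6 kb upstream of Chd2, which encodes a chromatin remodeller, and 2.5 kb from a noncoding start. Its percentile was 98.6, 96.0, 99.6 and 99.4 in e11.5 mandibular process, maxillary process, medial and lateral nasal plate, 99.8, 85.7 and 99.7 in e13.5 mandibular process, maxillary process and nose, and 99.9, 99.8 and 100.0 in the libraries labelled e15.5 mandibular process, maxillary process and nose. The e13.5 maxillary process alone was below 95. Other members with the highest medians were nearest to Tex44, Zfp239 (99.2), Col1a1 (99.1), Nedd4 (98.5), which encodes a ubiquitin ligase, Cdrt4 (98.5), Ddx3x (98.3, at chrX:13240336-13245414), Lag3 (98.1, in an exon of that gene), Ror2 (98.1) and Chd9 (97.9).

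The first comparison asked whether levels differed between e11.5 and e15.5. The rule asked for presence in every library alike, so this difference was tested. Presence was still limited most by the library labelled e15.5 nose, which 133 of the 250 distal regions present in 9 libraries lacked. A region that fell below the calling threshold in any library is not among the members. The log2 fold enrichment, centred in each library on its median over the 2831 regions present in all 10 (245 distal and 2586 near starts), differed in 54 members (limma, Benjamini-Hochberg adjusted over all 2831, threshold 0.05), 22.0% of them, where 11.8% of all regions tested passed and 10.8% of those near starts. At e15.5 39 members were lower (15.9%) and 15 higher (6.12%), against 7.14% and 4.63% of all regions tested. The median difference was -0.08 over the members and -0.01 over all regions. The centred values of the 4 e11.5 and the 3 e15.5 libraries did not overlap in 79 members (32.2%), the 54 among them, where 25.3% of all regions tested had no overlap. The e13.5 mean lay between the means of the other stages in 108 members (44.1%), against 46.1% of all regions tested. It did so in 46 of the 54 and in 62 of the 191 members that did not pass. The wide gap between the outer stages by which the 54 passed itself favours that contrast. Each library is a different tissue, so the p-values measure the spread between tissues of a stage, and 2 libraries bore on the count: 32 members passed without the library labelled e15.5 mandibular process and 37 without that labelled e15.5 maxillary process.

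**Figure D4:**
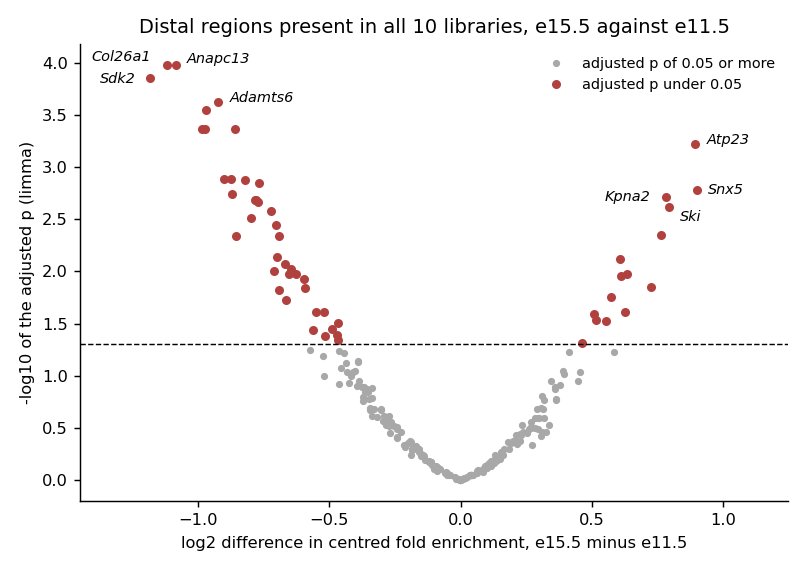
Difference in centred log2 fold enrichment between e15.5 and e11.5 (x axis) against −log10 of the limma adjusted p (y axis) for the 245 regions; red marks an adjusted p under 0.05, the dashed line. Of the red points 39 lie to the left and 15 to the right of 0, and the largest falls exceed the largest rises in size.

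The steepest fall was in an intron of Sdk2, which encodes a cell adhesion protein of the immunoglobulin superfamily, at chr11:113783846-113789602. Its fold enrichment was 8.35, 8.02, 14.2 and 14.6 at e11.5 (mandibular process, maxillary process, medial and lateral nasal plate), 5.83, 5.07 and 10.4 at e13.5 (mandibular process, maxillary process and nose), and 3.997, 3.80 and 4.73 in the libraries labelled e15.5 mandibular process, maxillary process and nose. These uncentred e15.5 values were below all others, and the centred ones were below all those of e11.5 (log2 difference -1.18, SE 0.18, limma adjusted p = 0.00014).
In an intron of Col26a1, a collagen gene, at chr5:136809081-136812947, the fold was 7.87, 8.39, 13.0 and 13.7 at e11.5, 4.001, 4.08 and 11.51 at e13.5, and 5.33, 4.16 and 3.29 at e15.5, in the same order of tissues. Here the jaw libraries of e13.5 were already as low as the e15.5 libraries, and the e13.5 nose was not (e15.5 against e11.5: -1.12, SE 0.16, limma adjusted p = 0.000105).
The region 12.9 kb downstream of the Anapc13 start, at chr9:102641445-102648033, fell by 1.09 (SE 0.15, limma adjusted p = 0.000105), from 8.58 to 15.6 at e11.5 to 3.54 to 5.69 at e15.5. The other 7 of the 10 largest falls were nearest to Tomm20 (-0.98), Shisal2a (-0.97), Rin2 (-0.97), Adamts6 (-0.92), Ppm1h (-0.90), Gm11733 (-0.88) and Fam20b (-0.87), a kinase of matrix proteoglycans.

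Among members near listed pathway genes, those that fell included the Notch receptor gene Notch2 (-0.60, limma adjusted p = 0.0119) and Maml3 (-0.47, adjusted p = 0.0456 by limma), 2 of the 3 Notch members, while Notch1 had 0.38 with an adjusted p of 0.124. Ror2, a receptor for Wnt5a that is needed for facial outgrowth, fell by 0.67 (limma adjusted p = 0.0188), and Crabp2, a retinoic acid binding protein, by 0.56 (adjusted p = 0.0363). The region near Epcam, an epithelial adhesion gene, fell by 0.59 (adjusted p = 0.0144), with a fold of 6.82 to 16.3 at e11.5 and 4.08 to 7.39 at e15.5. Promoter peaks of Epcam were present in 6 of the 10 libraries, and the part that the share of epithelium had in this difference was not tested. The region near Foxk1, among the 10 with the longest shared stretch, fell by 0.65.
No member of the Hedgehog, matrix, chromatin or immediate early lists passed in either direction (0 of 4, 0 of 6, 0 of 5 and 0 of 4 by limma). At an unadjusted p under 0.05 by limma, those near Boc, Fbln2, Nsd1, Fos and Nr4a1 did. Over all regions tested 11.8% passed, and 28.9% did at that unadjusted p. Lists of so few members, the Notch list included, cannot be told apart from those shares. The 2 Col1a1 regions had differences of -0.24 (SE 0.16) and 0.09 (SE 0.17).

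**Figure D5:**
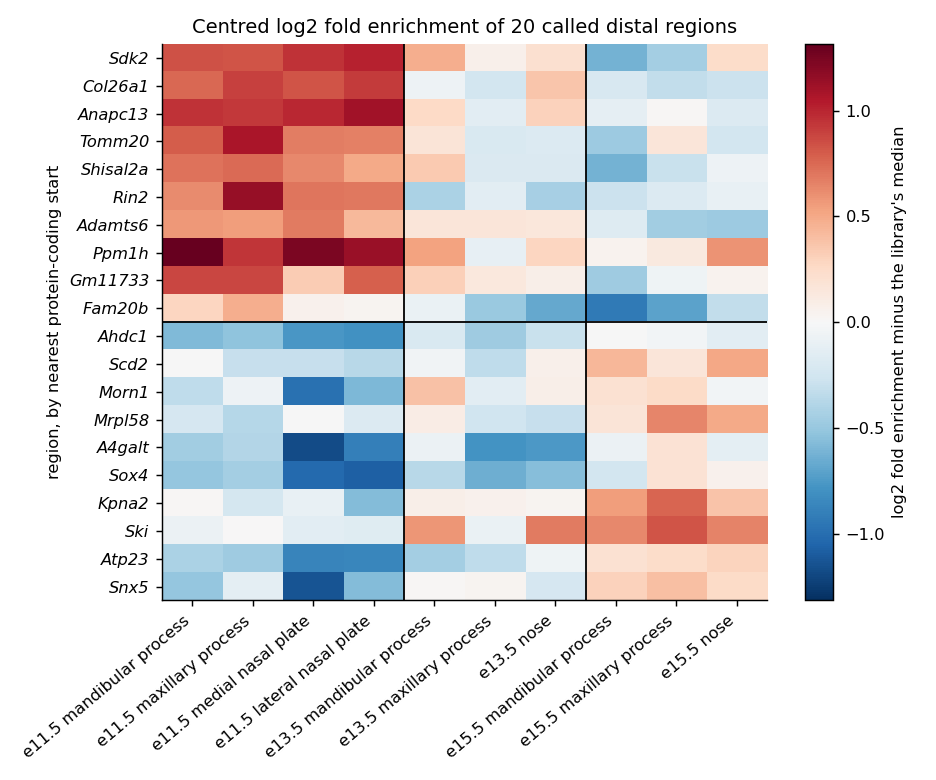
Heat map of log2 fold enrichment minus the library's median (colour, red high and blue low) in the 10 libraries (columns, with lines between stages) for the 10 members with the largest falls (upper rows) and the 10 with the largest rises (lower rows) between e11.5 and e15.5. In each row the 4 e11.5 values lie on one side of all 3 e15.5 values, as in the Sdk2 row, where e11.5 is between 0.83 and 1.01 and e15.5 between -0.62 and 0.24.

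The largest rise was at chr2:144156937-144166879, in an intron of the noncoding gene Gm5535 and 85.8 kb downstream of the start of Snx5, a sorting nexin. The fold was 3.28, 4.13, 3.35 and 4.89 at e11.5, 4.22, 4.94 and 7.67 at e13.5, and 7.61, 6.82 and 4.77 at e15.5. The raw values of the e11.5 lateral nasal plate and the e15.5 nose overlapped, and the centred ones did not (0.90, SE 0.18, limma adjusted p = 0.00168). Next came the region at chr10:126933745-126937458 nearest to Atp23, a mitochondrial protease gene, with 0.90 (SE 0.16, limma adjusted p = 0.000603).
The region 10.04 kb upstream of Ski, a repressor of TGF-beta signalling, at chr4:155232630-155239420, rose by 0.80 (SE 0.17, limma adjusted p = 0.00242), with folds of 4.43, 4.51, 6.69 and 6.49 at e11.5, 6.26, 4.54 and 14.4 at e13.5, and 9.54, 9.22 and 6.27 at e15.5. A region in an intron of the noncoding gene 2610307P16Rik, 194.0 kb from Sox4, a transcription factor of progenitor cells, rose by 0.76 (limma adjusted p = 0.00453). The others of the 10 largest rises were nearest to Kpna2 (0.78), A4galt (0.72), Mrpl58 (0.63), Morn1 (0.63), Scd2 (0.61), a fatty acid desaturase, and Ahdc1 (0.61). Of the 20 largest rises and falls, 4, all rises, lost their call without a single library: Mrpl58 without that labelled e15.5 maxillary process (limma adjusted p = 0.0865), Scd2 without that labelled e15.5 mandibular process (0.0577), A4galt without e11.5 medial nasal plate (0.0507) or the e15.5 maxillary process (0.099), and Morn1 without either nasal plate of e11.5 or either of those e15.5 libraries (0.0562 to 0.124).

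The sequence classes of the members that rose and fell were set side by side. Of the 15 higher at e15.5, 6 (40%) had a CpG-rich window and 12 were intergenic. Of the 39 lower, 3 (7.69%) were CpG-rich and 18 lay in introns. Over all 245 members 45 (18.4%) were CpG-rich, 153 were intergenic and 85 lay in introns. A RefSeq start lay within 1 kb of 6 of the 15, 13 of the 39 and 35 of the 191 members that did not pass. Of the 13 members with a tRNA gene, 3 rose (Kpna2, Mrpl58 and Plxdc1) and 0 fell by limma, with a median difference of 0.11 over the 13. Over all members 6.12% rose and 15.9% fell. The Mrpl58 region, whose arginine tRNA sequence is printed above, had folds of 4.004, 3.48, 7.33 and 6.40 at e11.5, 4.48, 4.02 and 7.23 at e13.5, and 6.94, 8.09 and 5.67 at e15.5 (limma adjusted p = 0.0107). Without centring its stages overlapped. The Lrp3 region had -0.16 (SE 0.16). These shares were noticed after the values were seen and are given with no test.

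The number of bases covered by peaks in a region differed in 5 members (2.04%), where 1.52% of all regions passed. Of these changes 3 were gains, and the largest was in an intron of Ccnd3, which encodes cyclin D3, at chr17:47516764-47520837.
There the peaks covered 1285, 1275, 1049 and 1399 bp at e11.5, 3345, 3527 and 3638 bp at e13.5, and 3798, 3704 and 4074 bp at e15.5. All e11.5 libraries were below all later ones (log2 difference 1.40, SE 0.18, limma adjusted p = 0.00552). A region in an intron of Btd, nearest to the start of Hacl1, at chr14:31657142-31666126, widened from 2552 to 3499 bp at e11.5 to 7029 to 8730 bp at e15.5 (1.17, SE 0.14, limma adjusted p = 0.00295), and one near Atp23, at chr10:126926186-126933721, from 1579 to 3794 bp to 6072 to 7149 bp (1.13, SE 0.20, limma adjusted p = 0.0313). Covered bases fell near Shisal2a (-0.74, limma adjusted p = 0.0337) and Sulf2, a heparan sulfate sulfatase gene (-0.72, limma adjusted p = 0.0368). The last 3 of these calls rested on single libraries: without any one of the e15.5 libraries the limma adjusted p was 0.0665 to 0.094 for Atp23, 0.0874 to 0.11 for Shisal2a and 0.0953 to 0.118 for Sulf2. Over all alternative settings they passed in 9 of 15 (Atp23), 6 of 15 (Shisal2a) and 4 of 14 (Sulf2). The Ccnd3 call passed in 15 of 15 and the Hacl1 call in 14 of 15.

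The second comparison asked whether levels differed between nasal tissue and jaw at e11.5 and e13.5 (3 nasal and 4 jaw libraries, with stage as a covariate). In covered bases 0 members passed by limma, where 0.177% of all regions passed. At an unadjusted p under 0.05 by limma, 27 members did (11.02%), against 9.11% of all regions. In fold enrichment 2 members passed, both lower in nasal tissue, where 0.283% of all regions passed.
At chr10:97623154-97628158, upstream of Epyc, a small proteoglycan gene, the difference was -0.80 (SE 0.15, limma adjusted p = 0.0246). The uncentred folds there were 2.93, 3.32, 2.84 and 2.89 in the e11.5 and e13.5 jaw libraries and 2.76, 2.905 and 3.29 in the nasal ones, which overlap, and they lay near the lowest fold of any member in each list. Near Ccdc63 the uncentred values overlapped too (-0.80, SE 0.17, limma adjusted p = 0.0405), with folds of 4.92, 3.24, 3.47 and 2.92 in jaw and 3.65, 3.399 and 3.85 in nasal tissue. The nasal lists were the longest of their stages, and neither call was made with quantile normalization. Both were also lost without e11.5 medial nasal plate, e13.5 mandibular process or e13.5 nose (limma adjusted p of 0.101 to 0.174), Epyc without e11.5 maxillary process (0.0864), and Ccdc63 without e11.5 mandibular process (0.152) or lateral nasal plate (0.091).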

How the data were processed

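Broad peak lists of 10 H3K27ac ChIP-seq samples, each called per sample, were used (the 10 inputs: not analysed here). MACS2 2.2.4, SAMtools 0.1.19 and BWA 0.7.7 are named as tools in the processing notes of the submitters, with mm10 as the build and without settings. For each peak the authors deposited a fold enrichment (a ratio of signal to background), −log10 p-value, −log10 q-value and a score, which was 10 times −log10 q in nearly all peaks. The smallest −log10 q in any list was 1.30. Read depth is unknown, fold enrichments are not comparable between lists without scaling, and signal below the calling threshold is not seen.

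Of 144896 peaks, the 144852 that lay on an autosome, X or Y were merged where they overlapped or touched, and the result was checked with bedtools 2.31.1. Starts were those of all GENCODE vM21 transcripts (132629 positions), and sequence, tRNA genes and further starts came from RefSeq for GRCm38. For each region the covered bases and the fold of its strongest peak were taken per library, on a log2 scale, centred on the library's median over regions present in all 10, and compared with limma 3.58.1 (R 4.3.3), two-sided, with Benjamini-Hochberg adjustment over 2831 regions. In simulated data with a known log2 change of 1 in 200 of 2831 regions, 95.5% of them were found for fold between stages, 80.0% for covered bases between stages, 87.5% for fold between nasal tissue and jaw and 76.0% for covered bases there. For fold between stages 12 unchanged regions were also called. The members called there had smaller median differences, 0.63 for rises and 0.71 for falls, and changes of that size were not simulated.

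The members, gene lists and motifs were chosen with earlier results of these data known. Named were the genes nearest to 3 or more members, the 10 members with the most shared bases, the 10 with the highest median percentile, up to 10 in each direction per comparison, up to 4 genes per list, and the regions nearest to and farthest from a start. 1 gene of the lists is not reported here by name. Groups followed the labels. The labels do not tell whether embryos were shared between tissues.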

Additional observations from a re-analysis of the deposited data

Results flagged for a closer look

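In 30 sets of 4 libraries, 2 had a library apart from the other 3 by Dixon's criterion, and chance gives about 1 in 20. Most sets held the e11.5 values of members named in the comparison of stages. The rest held e11.5 library medians over the members, or the e11.5 and e13.5 jaw libraries for members named in the nasal comparison. In the Rin2 region, which fell between e11.5 and e15.5, the e11.5 maxillary process was the highest, with a centred log2 fold enrichment of 1.14 where the lowest e11.5 library had 0.617. In the Gm11733 region the e11.5 medial nasal plate was the lowest, with 0.334 where the highest had 0.879.

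Peaks also lay on sequences outside the chromosomes analysed, 44 in all. The unplaced sequence GL456216, assigned to chromosome 4, held 10 peaks, in 10 of 10 libraries, and JH584304, assigned to no chromosome, held 16, in 9 libraries. No transcript starts were matched to these sequences here.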

How the results depend on the processing

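The number of members depended on how presence was defined. With only peaks of −log10 q of at least 2, 110 regions (108 with bases shared by all) replaced 245 (239). With every list cut to the length of the shortest, 155 (152) were left, with starts of protein-coding genes only 375 (367), and with at least 50% of a region covered in each library 72. Leaving out each library in turn gave 245 to 379 regions (239 to 370), the highest without the e15.5 nose. RefSeq starts, added after seeing the data, left 191. A window at the middle of the region was CpG-rich in 13.47% of members. The 54 members that differed in fold between stages became 22 with −log10 q of at least 2 and 19 for e13.5 against e11.5, all lower, and 32 to 55 when each library was left out. Quantile normalization gave 49, of which 47 were among the 54, with 16 higher and 33 lower. Covered bases between stages gave 5 members, 2 for e13.5 against e11.5, and 2 to 7 when libraries were left out. Between nasal tissue and jaw, covered bases gave 1 member with −log10 q of at least 2 and 0 to 1 without single libraries, and fold gave 0 with quantile normalization, 0 with −log10 q of at least 2 and 0 to 3 without single libraries. The cause of these changes was not tested. No named value changed sign, and under the alternatives 344 values of named regions kept their side of the threshold and 59 no longer passed it. No paired analysis was possible because every tissue and stage had a single library, all numbered 1, so that numbers pair nothing. With the labelled facial region as a covariate 52 members passed for fold between stages and 5 for covered bases. That covariate takes the e15.5 labels as given, although the names inside those peak files gave other tissues.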
